A study of Homo sapiens with 8 samples.

Results

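The replication licensing genes are here a list of 10 genes. ORC1, CDC6 and CDT1 encode proteins that recognise a replication origin and load the replicative helicase onto it. MCM2, MCM3, MCM4, MCM5, MCM6 and MCM7 encode the ring that is loaded, and MCM10 acts when the helicase is activated. The genes were chosen by gene name, and all 10 were found with a value in all 8 libraries, out of 26360 genes listed in both deposited tables and 34164 genes listed in either. RNA was sequenced from Kyse510, an established human cell line of esophageal squamous cell carcinoma (ESCC), and each condition has 1 library. The inhibitor libraries come from cells given vehicle (DMSO), 7 µM SP2509, an inhibitor of the histone demethylase LSD1, 7 µM UNC0642, an inhibitor of the histone methyltransferase G9a, or SP2509 and UNC0642 together, for 2 days. The labels give no dose for the combination, and they call the vehicle library untreated. For the knockdown libraries, Kyse510 cells carrying a doxycycline-inducible shRNA against LSD1 (shLSD1) or G9a (shG9a) were kept under puromycin for 14 days to obtain stable clones, and were then left without doxycycline (-Dox) or given it for 2 days (+Dox). The sample labels make the same line without doxycycline the control of each knockdown, whereas the study's legend names a nonsilencing shRNA as control, and every knockdown ratio here follows the labels. Each knockdown rests on 1 hairpin in 1 stable line. No line with a hairpin that silences nothing was analysed here, so an effect of doxycycline and an effect of the silencing cannot be told apart.

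Licensing happens in G1 phase, when the origin recognition complex, of which ORC1 is the largest subunit, binds DNA and recruits the ATPase CDC6. CDC6 and CDT1 then load the ring of MCM2 to MCM7, which stays inactive until S phase, and geminin (GMNN) blocks CDT1 afterwards so that no origin is licensed again. Many of these genes are transcribed under E2F factors as cells enter S phase, and they are widely used as markers of proliferation in squamous epithelium and its tumours. MCM10 acts later, when the loaded helicase is activated.

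Since several of these genes are known E2F targets, the E2F words in their promoters are shown first. The words TTTCCCGC, TTTGGCGC, TTTCGCGC and TTTGCCGC were searched on both strands in the 250 bases before the RefSeq gene start (GRCh38.p14), for the 8 genes with an entry. A word was found before the start of MCM3, MCM6, MCM7 and CDT1, whereas 2.77% of all 34943 promoters in the table held one. Stretches around the words are given 5′ to 3′ in the direction of the gene, with the words in capitals. A run of 12 capitals is TTTGGCGC on the gene's strand overlapping TTTCGCGC on the opposite strand.
MCM3, chr6:52284898-52284927, minus strand: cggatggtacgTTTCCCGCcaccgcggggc
MCM6, chr2:135876511-135876606, minus strand: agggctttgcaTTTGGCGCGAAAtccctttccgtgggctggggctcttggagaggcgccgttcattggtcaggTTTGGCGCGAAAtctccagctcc
MCM7, upper word, chr7:100101566-100101595, minus strand: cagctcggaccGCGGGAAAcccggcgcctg
MCM7, lower word, chr7:100101398-100101417, minus strand: ggggggcgacgTTTCGCGCc
CDT1, chr16:88803743-88803772, plus strand: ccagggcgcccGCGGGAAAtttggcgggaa

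MCM6 was the only one of the 8 with the 12-base run, which it held 2 times, beginning 152 and 90 bases before the start. No word was found in this window for MCM2, MCM10, CDC6 and ORC1. With the 50 bases after the start included, MCM2 and CDC6 also held a word, which made 6 of 8 genes against 3.30% of all promoters. A match describes the letters and is not a measured binding site. The RefSeq start lay between 4 bases (MCM10) and 576 bases (CDT1) from the start of the gene in the deposited coordinates.

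The libraries held between 15662035 and 17889466 counted fragments, which were recovered from the FPKM values (fragments counted on a gene, divided by gene length and library size). The shRNA libraries matched their labels, since doxycycline took LSD1 (KDM1A) from 26.0 to 6.29 FPKM (shLSD1) and G9a (EHMT2) from 7.85 to 4.76 FPKM (shG9a). KDM1A was higher in the shG9a +Dox library than without doxycycline, by 0.43 on the log2 scale. A lower EHMT2 level was not limited to the hairpin. EHMT2 read 11.1 FPKM in vehicle, 10.2 FPKM with SP2509, 10.3 FPKM with UNC0642 and 5.38 FPKM with the combination. The log2 fold change of EHMT2 was -0.93 with the combination and -0.62 in the shG9a line. Of the 6 squamous epithelium markers, KRT5, TP63 and DSG3 stood above 5 FPKM in all 8 libraries, whereas KRT14 and KRT6A were below 2 FPKM in vehicle, and SOX2 went from 18.3 FPKM in vehicle to 0.313 FPKM with SP2509. Of the markers of other cell types, PTPRC and PECAM1 stayed below 1 FPKM, COL3A1 and CD14 reached at most 1.501 and 2.67 FPKM, and COL1A1 lay between 2.92 and 5.36 FPKM. With 1 library per condition there is no replicate check of any difference, and the 95% intervals below cover only the counting error of a ratio of fragments between 2 libraries, each scaled to its total (Clopper-Pearson). Fold changes and calls use FPKM + 1, and a gene was called where this ratio reached 1.3 in either direction and either library held 1 FPKM or more. Shares of all genes are taken over the genes past the filter in use, and shares of a list over all its genes.

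In both knockdown lines the licensing genes were called in the upward direction only, whereas with SP2509 most calls were downward. With shLSD1 +Dox, 7 of the 9 members past the filter were called higher, beside 24.8% of all genes, and 0 were called lower, beside 12.3%. With shG9a +Dox, 6 of 10 were called higher and 0 lower, beside 32.9% and 17.6% of all genes.

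With SP2509, 4 members were called lower and 1 higher, beside 39.9% and 21.0% of all genes and 60.9% in either direction, so the share of members called lower was close to that of the whole transcriptome. With UNC0642, 3 were called higher and 1 lower, beside 18.2% and 16.9%. With the combination, 6 were called higher and 2 lower, beside 31.4% and 31.7%, and 63.2% in either direction. The 3 inhibitor comparisons share the vehicle library and are not independent.

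The median log2 fold change of the 10 members was -0.31 with SP2509, 0.23 with UNC0642, 0.39 with the combination, 0.50 with shLSD1 and 0.58 with shG9a. Over all genes past the filter, the medians were -0.21, -0.01, -0.02, 0.13 and 0.18 in the same order. When the scale was set by a trimmed mean of the ratios (TMM), the reference moved by -0.28 (log2) with SP2509, 0.15 with shLSD1 and 0.23 with shG9a, by 0.0048 with UNC0642 and by 0.0077 with the combination. Relative to it, the member medians became -0.036, 0.35 and 0.35. The split of calls with SP2509 then became 3 higher and 3 lower, where 33.0% and 25.9% of all genes were called. With shLSD1 it became 5 higher and 1 lower, the latter being CDT1, where 15.1% and 18.6% of all genes were called. Less of a transcript per cell and fewer cells in the phase that expresses it cannot be told apart in these bulk libraries.

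**Figure D1:**
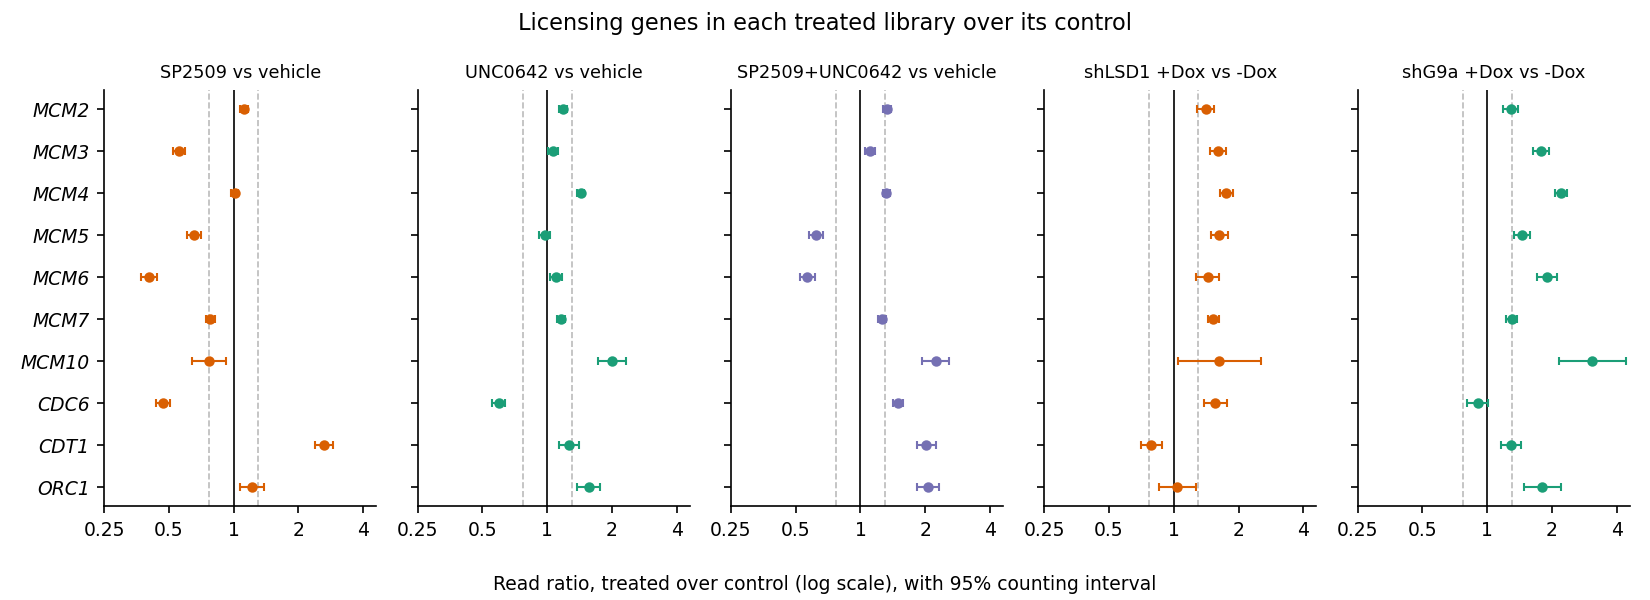
Ratio of fragments in the treated library over its control for each licensing gene (log axis), in 1 panel per comparison. Points are ratios, bars are 95% counting intervals without any replicate error, and dashed lines mark 1.3-fold in either direction; MCM2 to MCM7 all lie to the right of 1 in both knockdown panels, whereas CDT1 lies farthest right and MCM6 farthest left with SP2509.

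The genes that act first at the origin did not move together. ORC1 (chr1:52372829-52404459, minus strand) read 8.27 FPKM in vehicle, 10.03 FPKM with SP2509, 12.9 FPKM with UNC0642 and 17.0 FPKM with the combination. In the lines it read 3.604 FPKM (shLSD1 -Dox), 3.75 FPKM (shLSD1 +Dox), 3.14 FPKM (shG9a -Dox) and 5.67 FPKM (shG9a +Dox). It was thus highest under the combination, with a fragment ratio of 2.05 (1.82 to 2.31) over vehicle. It was also called higher with UNC0642 and with shG9a, where the ratio was 1.81 (1.49 to 2.20). In the shLSD1 line the ratio was 1.04 (0.852 to 1.27), a difference that was not detectable at this depth, and its sign turned under centring and under TMM, with log2 fold changes of -0.07 and -0.10.

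CDC6 (chr17:40287633-40304657, plus strand), the loader that ORC recruits, read 25.0 FPKM in vehicle, 11.8 FPKM with SP2509, 14.9 FPKM with UNC0642 and 37.2 FPKM with the combination. Each inhibitor alone thus gave a lower level than vehicle, and the combination a higher one. The fragment ratios over vehicle were 0.471 (0.437 to 0.508), 0.596 (0.556 to 0.639) and 1.49 (1.41 to 1.58) in that order. Set directly against the single inhibitors, the combination library was 3.16-fold (2.95 to 3.39) above SP2509 and 2.50-fold (2.35 to 2.67) above UNC0642. CDC6 was the only member called lower with SP2509 and also with UNC0642.

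In the lines, CDC6 read 4.26 FPKM (shLSD1 -Dox), 6.65 FPKM (shLSD1 +Dox), 6.65 FPKM (shG9a -Dox) and 6.01 FPKM (shG9a +Dox). The 2 uninduced libraries already differed by 1.56-fold, about as much as the ratio with doxycycline in the shLSD1 line, which was 1.56 (1.38 to 1.77). The ratio in the shG9a line was 0.903 (0.805 to 1.01).

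CDT1 (chr16:88803213-88809258, plus strand), which brings the MCM ring to the origin, went the other way from CDC6 with SP2509. It read 11.3 FPKM in vehicle, 29.8 FPKM with SP2509, 14.4 FPKM with UNC0642 and 22.9 FPKM with the combination. The fragment ratios over vehicle were 2.63 (2.40 to 2.89), 1.27 (1.14 to 1.41) and 2.02 (1.83 to 2.23). In the lines it read 12.2 FPKM (shLSD1 -Dox), 9.62 FPKM (shLSD1 +Dox), 10.96 FPKM (shG9a -Dox) and 14.1 FPKM (shG9a +Dox). Doxycycline gave a ratio of 0.787 (0.704 to 0.880) in the shLSD1 line and 1.29 (1.16 to 1.44) in the shG9a line, and neither reached the call. CDT1 was the member with the largest upward difference in SP2509 and, with shLSD1, the one member below its control.

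The CDT1 inhibitor geminin did not follow CDT1 with SP2509. GMNN read 14.1 FPKM in vehicle, 14.2 FPKM with SP2509, 20.9 FPKM with UNC0642 and 22.3 FPKM with the combination, so that it was called higher in the last 2 of these. In the lines it read 8.62 FPKM (shLSD1 -Dox), 10.9 FPKM (shLSD1 +Dox), 8.11 FPKM (shG9a -Dox) and 15.3 FPKM (shG9a +Dox). The ratio of CDT1 to GMNN, both scaled by length, was 0.8004 in vehicle, 2.10 with SP2509, 0.686 under UNC0642 and 1.03 in the combination library. In the lines it was 1.42 without and 0.882 with doxycycline for shLSD1, and 1.35 without and 0.922 with doxycycline for shG9a. The ratio was therefore above vehicle in the SP2509 and combination libraries and below it with UNC0642. In both induced lines it was below that of the uninduced library.

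**Figure D2:**
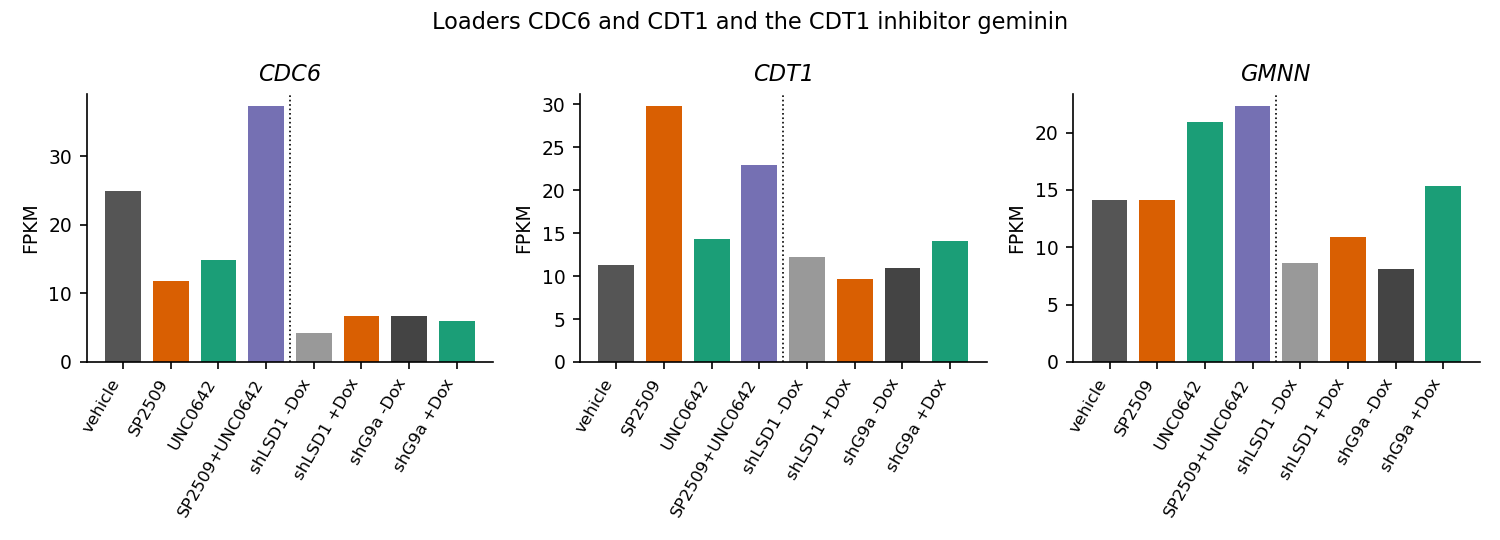
Level (FPKM, linear axis from 0) of CDC6, CDT1 and GMNN in the 8 libraries, with a dotted line between the 2 separately normalised tables and 1 library per bar. CDC6 is below vehicle with each inhibitor and highest with the combination, CDT1 is highest with SP2509, and GMNN is near 14 FPKM in vehicle and SP2509.

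The 6 subunits of the ring, which sit in it in equal number, also separated under SP2509. MCM6 (chr2:135839626-135876426, minus strand) read 26.7 FPKM in vehicle, 10.8 FPKM with SP2509, 29.5 FPKM with UNC0642 and 15.1 FPKM with the combination. MCM5 (chr22:35400063-35425430, plus strand) read 16.2, 10.6, 15.8 and 10.1 FPKM in the same libraries. MCM3 (chr6:52264009-52284881, minus strand) read 44.99, 25.1, 48.1 and 49.7 FPKM. All 3 were called lower with SP2509, MCM5 and MCM6 were also called lower with the combination, and MCM3 was near its vehicle level there.

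The ratios with SP2509 over vehicle were 0.405 (0.372 to 0.441) for MCM6, 0.654 (0.609 to 0.701) for MCM5 and 0.558 (0.524 to 0.594) for MCM3. With the combination they were 0.566 (0.524 to 0.612), 0.621 (0.578 to 0.668) and 1.10 (1.05 to 1.16). MCM5 lost its call with SP2509 when the scale was set by TMM, with a log2 fold change of -0.29.

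MCM2, MCM4 and MCM7 were called lower in none of the inhibitor libraries. MCM2 (chr3:127598223-127622436, plus strand) read 47.0 FPKM in vehicle, 52.3 FPKM with SP2509, 55.9 FPKM with UNC0642 and 62.3 FPKM with the combination. MCM4 (chr8:47960185-47978160, plus strand) read 43.8, 44.2, 62.7 and 57.6 FPKM. MCM7 (chr7:100092728-100101940, minus strand), whose introns host a cluster of miRNAs, read 50.2, 39.1, 58.4 and 63.0 FPKM. MCM4 was called higher with UNC0642, at a ratio of 1.43 (1.38 to 1.49), and MCM2 and MCM4 were called higher with the combination, at 1.33 (1.27 to 1.38) and 1.32 (1.27 to 1.37). MCM2 and MCM4 lay close to the threshold in the combination and lost the call there when ratios were centred on the median gene. With SP2509, MCM4 had a ratio of 1.01 (0.972 to 1.05), and MCM7 had one of 0.778 (0.741 to 0.817), which did not reach the call on the FPKM + 1 scale.

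In the shLSD1 line, all 6 subunits were called higher with doxycycline, and the differences covered a narrow range. MCM4 went from 10.7 to 18.8 FPKM, MCM3 from 13.4 to 21.4 FPKM, MCM5 from 5.60 to 9.11 FPKM, MCM7 from 24.2 to 36.9 FPKM, MCM6 from 6.46 to 9.27 FPKM and MCM2 from 9.69 to 13.6 FPKM. The log2 fold changes ran from 0.45 (MCM2) to 0.76 (MCM4). MCM2 and MCM6 lost the call under centring and under TMM, with values of at least 0.30 on the log2 scale in both.

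In the shG9a line, all 6 subunits read higher with doxycycline and 4 were called. MCM4 went from 12.5 to 27.5 FPKM, MCM6 from 8.16 to 15.5 FPKM, MCM3 from 14.2 to 25.3 FPKM, MCM5 from 6.63 to 9.62 FPKM, MCM7 from 28.6 to 37.1 FPKM and MCM2 from 12.4 to 15.9 FPKM. MCM4 had the largest ratio, 2.21 (2.07 to 2.35). MCM2 and MCM7 were just under the threshold, with log2 fold changes of 0.34 and 0.37, and MCM5 lost its call under centring and under TMM.

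**Figure D3:**
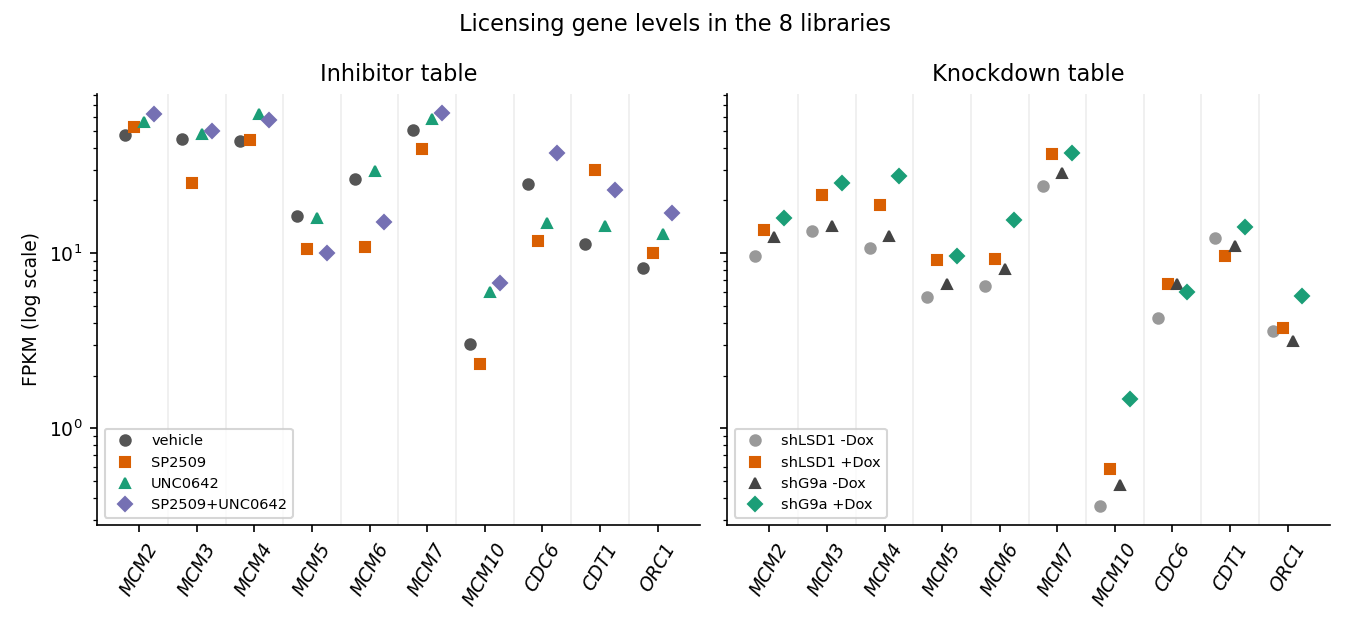
Level (FPKM, log axis) of each licensing gene, with 1 point per library and 1 panel per table. The tables were normalised separately; MCM7 lies highest and MCM10 lowest in 6 and 8 of the 8 libraries, and 9 of the 10 genes lie above 3 FPKM in every library.

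The order of the subunit levels was in part the same in all libraries. MCM5 was the lowest and MCM6 the next lowest in all 8 libraries. MCM7 was the highest in 6 of them, with MCM2 highest in the SP2509 library and MCM4 in the UNC0642 library. MCM2, MCM3 and MCM4 lay close together in vehicle, between 43.8 and 47.0 FPKM, and exchanged places between libraries.

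The ratio of the highest to the lowest subunit was 3.09 in vehicle, 4.93 with SP2509, 3.97 under UNC0642 and 6.25 in the combination library. In the lines it stayed between 3.86 and 4.33. The summed level of the 6 subunits was 229 FPKM in vehicle, 182 FPKM with SP2509, 270 FPKM with UNC0642 and 258 FPKM with the combination. With doxycycline it went from 70.1 to 109 FPKM (shLSD1) and from 82.4 to 131 FPKM (shG9a).

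Of that sum, MCM6 made up 11.6% in vehicle, 5.92% with SP2509, 10.9% under UNC0642 and 5.85% in the combination library. In the lines its share was 9.21% and 8.49% for shLSD1 without and with doxycycline, and 9.90% and 11.8% for shG9a. MCM6 thus held about the same low share in both libraries that received SP2509.

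**Figure D4:**
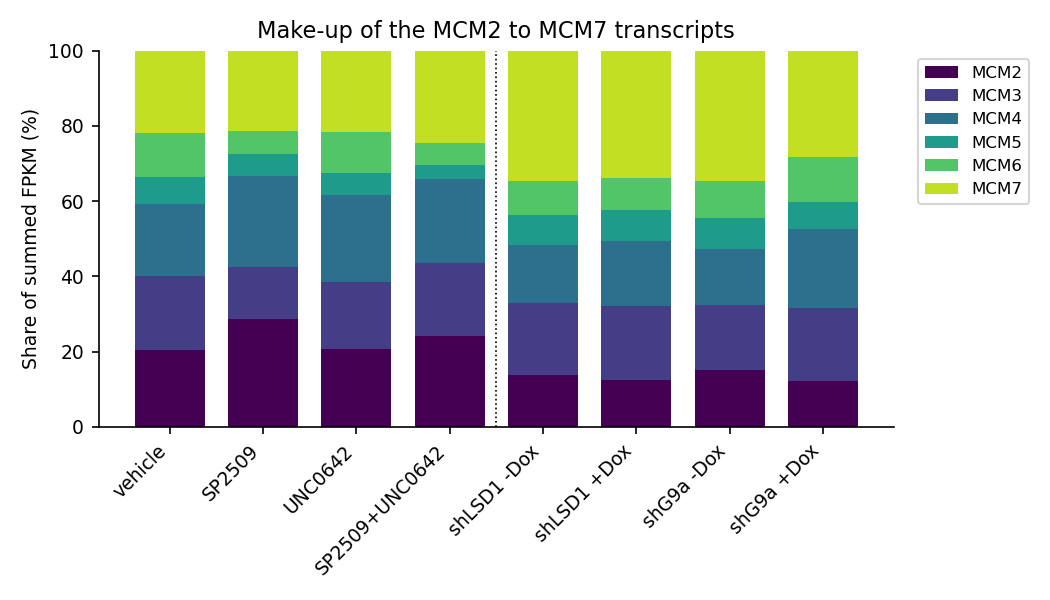
Share of the summed FPKM of MCM2 to MCM7 held by each subunit (percent, stacked to 100) in the 8 libraries, with a dotted line between the 2 tables. The MCM6 segment is 5.92% and 5.85% in the SP2509 and combination libraries and 11.6% in vehicle, and MCM7 holds 34.6% in each uninduced line.

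MCM10 (chr10:13161554-13211104, plus strand), which joins the helicase at its activation, was the lowest of the 10 genes in every library. It read 3.02 FPKM in vehicle, 2.33 FPKM with SP2509, 6.03 FPKM with UNC0642 and 6.75 FPKM with the combination. The ratio over vehicle was 2.00 (1.72 to 2.32) with UNC0642 and 2.23 (1.93 to 2.59) with the combination, so both libraries with UNC0642 stood above the other 2. In the lines it read 0.361 FPKM (shLSD1 -Dox), 0.586 FPKM (shLSD1 +Dox), 0.477 FPKM (shG9a -Dox) and 1.46 FPKM (shG9a +Dox), from 35, 56, 43 and 138 fragments. The ratio in the shG9a line was 3.07 (2.16 to 4.42), larger than the 1.67-fold change on the FPKM + 1 scale because the gene is low. In the shLSD1 line MCM10 was under the filter.

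The combination library was also set directly against each single inhibitor. Compared with SP2509 alone, 6 of 10 members were called higher and 0 lower, beside 41.8% and 24.8% of all genes, with a median log2 fold change of 0.56 against 0.20 over all genes. With TMM, which moved the reference by 0.36 here, 3 were called higher (CDC6, MCM3 and MCM10) and 2 lower (CDT1 and MCM5), beside 27.2% and 39.9% of all genes, and the median became 0.20.

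Compared with UNC0642 alone, 2 members were called higher and 2 lower, beside 27.7% and 27.1% of all genes. CDC6 and CDT1 were higher, with log2 fold changes of 1.27 and 0.64, and MCM6 and MCM5 were lower, at -0.92 and -0.60. The same counts were found with TMM and with centring, and the median over the members was 0.12.

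The uninduced lines were well below vehicle for most members, and since the tables were normalised separately these values are only set side by side. The vehicle value was 3.72 times (median) that of the shLSD1 -Dox library, from 0.925 times for CDT1 to 8.36 times for MCM10. It was 3.21 times (median) that of the shG9a -Dox library, from 1.03 times for CDT1 to 6.34 times for MCM10. Between the uninduced lines, which share a table, the shG9a line was 0.871 to 1.56 times the shLSD1 line, with a median of 1.18. With the mean of both uninduced libraries as control, the number of members called higher in shLSD1 +Dox was 4, beside 23.9% of all genes, and the median log2 fold change of the members was 0.29.

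The other genes of DNA replication, 67 in 8 fixed lists, give the setting of the licensing genes. Called higher and lower were 6 and 33 with SP2509, 15 and 1 with UNC0642, 21 and 18 with the combination, 25 and 0 with shLSD1, and 51 and 0 with shG9a. As shares of the list, 8.96% and 49.3% were called higher and lower with SP2509 (21.0% and 39.9% of all genes), 22.4% and 1.49% with UNC0642 (18.2% and 16.9%), and 31.3% and 26.9% with the combination (31.4% and 31.7%). Called higher were 37.3% with shLSD1 (24.8% of all genes) and 76.1% with shG9a (32.9%). The median log2 fold changes were -0.37, 0.15, 0.01, 0.30 and 0.62 in the order of the comparisons, and the value of 0.01 for the combination turned to -0.03 under centring. The splits moved with the scale, and with TMM were 9 and 19 for SP2509, where 33.0% and 25.9% of all genes were called. For shLSD1 they were then 12 and 4, beside 15.1% and 18.6% of all genes. For shG9a they were 34 and 2, beside 17.0% and 27.4%.

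Of the 14 fork factors, 2 were called higher and 5 lower with SP2509, and 5 higher and 3 lower with the combination. The shares were 14.3% and 35.7% with SP2509, beside 21.0% and 39.9% of all genes. They were 35.7% and 21.4% with the combination, beside 31.4% and 31.7%, so the list as a whole did not follow CDC6. Among its members, PCNA, the sliding clamp, and FEN1, the flap endonuclease, went the way of CDC6 in both comparisons. PCNA read 60.2 FPKM in vehicle, 21.1 FPKM with SP2509, 108 FPKM with UNC0642 and 144 FPKM with the combination. FEN1 read 16.2, 5.19, 31.8 and 62.1 FPKM. Both were thus low with SP2509 and far above vehicle with the combination, and unlike CDC6 they were also above vehicle with UNC0642. In the lines, PCNA went from 22.9 to 43.4 FPKM with shLSD1 and from 28.3 to 76.3 FPKM with shG9a.

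Of the 5 other origin recognition subunits, ORC6 was called higher with the combination, as ORC1 was. ORC6 read 7.39 FPKM in vehicle, 5.27 FPKM with SP2509, 11.6 FPKM with UNC0642 and 23.7 FPKM with the combination, whereas ORC5 and ORC2 were called lower there, at log2 fold changes of -1.16 and -0.87, and 4 of the 5 were called lower there under centring or TMM. Of the 9 licensing regulators, 0 were called higher and 3 lower with SP2509, and 3 higher and 2 lower with the combination, shares at or below those of all genes but for the 3 called higher (33.3% against 31.4%). With TMM the SP2509 counts were 1 and 2. DTL, the adaptor that sends CDT1 to degradation, read 34.9 FPKM with the combination and 13.2 FPKM in vehicle. SKP2, another ubiquitin ligase subunit, read 14.9 and 28.1 FPKM in the same libraries.

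Of the MCM paralogs outside the ring, MCM8 and MCM9 were both called lower with SP2509, at log2 fold changes of -0.43 and -0.90, and only 1 of them was called under centring or TMM. Of the 13 origin firing genes, 8 were called lower and 0 higher with SP2509, or 61.5% lower beside 39.9% of all genes. With TMM these became 5 and 1, where 25.9% of all genes were called lower and 33.0% higher. Of the same genes, 5 were called higher and 0 lower with UNC0642, beside 18.2% and 16.9% of all genes. In the shG9a line 12 were called higher, beside 32.9% of all genes, and 9 with TMM, beside 17.0%. GINS1, a subunit of the active helicase, read 2.54 FPKM in shG9a -Dox and 7.52 FPKM in shG9a +Dox. Of the 6 nucleotide supply genes, RRM2, the small subunit of ribonucleotide reductase, read 13.4 FPKM in vehicle, 6.31 FPKM with SP2509 and 34.0 FPKM with the combination.

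Of the 12 polymerase and primase genes, 2 were called higher and 5 lower with SP2509, and 3 higher and 4 lower with the combination. The shares were 16.7% and 41.7% with SP2509, beside 21.0% and 39.9% of all genes. They were 25% and 33.3% with the combination, beside 31.4% and 31.7%, so the shares called lower were close to those of all genes. POLA1, the catalytic subunit of polymerase alpha, was lower in these comparisons, at log2 fold changes of -0.77 and -0.84, and POLE4, a small subunit of polymerase epsilon, was higher, at 0.76 and 0.82. Of the 6 fork protection and checkpoint genes, CLSPN, which mediates checkpoint signalling, read 3.35 FPKM in vehicle, 1.47 FPKM with SP2509, 7.30 FPKM with UNC0642 and 11.3 FPKM with the combination. ATR, the checkpoint kinase, read 5.76 FPKM in vehicle and 2.09 and 2.83 FPKM in the libraries with SP2509.

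The cell cycle genes around licensing separated most in the combination. Of 17 G1/S regulators, 11 were called higher and 3 lower with the combination, with a median log2 fold change of 0.82. Of 18 G2/M genes, 1 was called higher and 16 lower, with a median of -1.45. As shares, 64.7% and 17.6% of the G1/S list and 5.56% and 88.9% of the G2/M list were called higher and lower. Of all genes, 31.4% and 31.7% were called there. CENPE, a mitotic kinesin, read 10.2 FPKM in vehicle and 0.408 FPKM with the combination, and TOP2A, a topoisomerase that peaks in G2, read 100.2 and 19.0 FPKM. CCNE1 read 1.002 and 7.64 FPKM, E2F1 7.86 and 30.8 FPKM, and the cyclin-dependent kinase inhibitor CDKN1A 10.8 and 151 FPKM. The part of the cell cycle distribution in the licensing values was not tested.

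The same lists gave other counts with the single treatments. With SP2509, 1 G1/S gene was called higher and 8 lower, and 4 G2/M genes higher and 1 lower. These were 5.88% and 47.1%, and 22.2% and 5.56%, beside 21.0% and 39.9% of all genes. With TMM the counts became 6 and 4, and 9 and 0, beside 33.0% and 25.9% of all genes. With UNC0642 the counts were 8 and 0, and 1 and 2, beside 18.2% and 16.9%. With shLSD1 they were 7 and 0, and 10 and 0, beside 24.8% and 12.3%. There TMM gave 4 and 0, and 8 and 0, beside 15.1% and 18.6%. With shG9a the counts were 9 and 2, and 16 and 0, beside 32.9% and 17.6%. TMM gave 8 and 4, and 11 and 0, beside 17.0% and 27.4%.

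**Figure D5:**
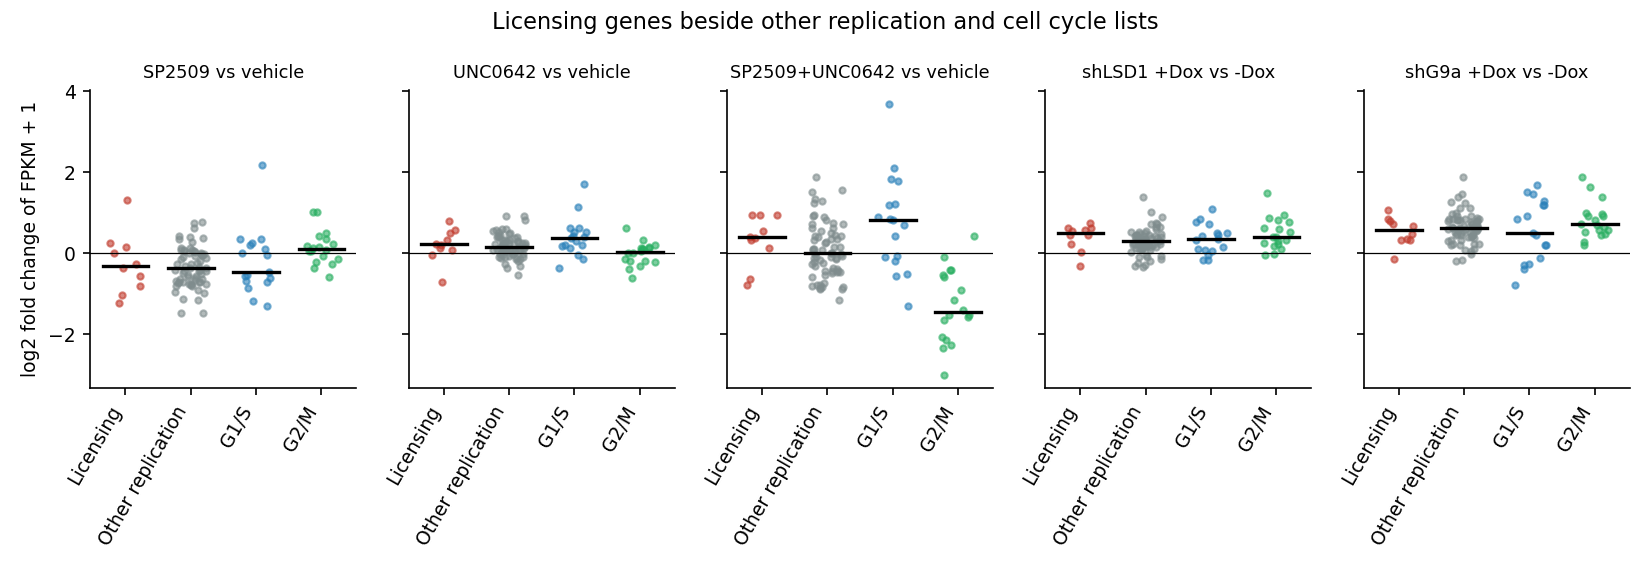
Log2 fold change of FPKM + 1 for the 10 licensing genes, 67 other replication genes, 17 G1/S regulators and 18 G2/M genes, with 1 point per gene, a black bar at the median of each list and 1 panel per comparison. Points are genes and not replicates; in the combination panel the G1/S median is 0.82 and the G2/M median is -1.45, and in both knockdown panels every median lies above 0.

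Of the 10 members, 4 have a gene on the opposite strand that starts within 1000 bases. With SP2509, TPRA1 (beside MCM2) was called higher, and PRKDC (beside MCM4) and PRPF38A (beside ORC1) were called lower. AP4M1, beside MCM7, was not called, nor were the 4 members. In the inhibitor table TPRA1, whose start lies 28 bases from that of MCM2, read 15.6 FPKM in vehicle, 45.5 FPKM with SP2509, 18.3 FPKM with UNC0642 and 29.98 FPKM with the combination. Its log2 fold change with SP2509 was 1.49, against 0.15 for MCM2. PRKDC, a DNA repair kinase whose start lies 2 bases from that of MCM4, read 99.6, 62.0, 99.8 and 49.0 FPKM, with log2 fold changes of -0.67 with SP2509 and -1.01 with the combination, where MCM4 had 0.01 and 0.39. PRPF38A had -0.39 with SP2509, close to the threshold, where ORC1 beside it had 0.25. AP4M1 had 0.18, where MCM7 beside it had -0.35, but AP4M1 was low, at 0.919 FPKM in vehicle and 1.18 FPKM with SP2509. With doxycycline, PRKDC had log2 fold changes of 0.34 (shLSD1) and 0.41 (shG9a) beside 0.76 and 1.08 for MCM4, PRPF38A had 0.33 and 0.36 beside 0.04 and 0.69 for ORC1, and TPRA1 had 0.21 and -0.15 beside 0.45 and 0.34 for MCM2. With no stated strand setting, reads where such genes overlap cannot be assigned with certainty.

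By distance over the 5 log2 fold changes, the genes nearest to the member medians were RRP7A (0.20), MRPL18 (0.20), SELENOT (0.22), IWS1 (0.23) and NCBP2-AS2 (0.23), out of 4573 genes with at least 5 FPKM in all 8 libraries, whose median distance was 1.20. Of the members themselves, MCM7 lay at 0.25 from the medians, MCM2 at 0.53 and MCM3 at 0.63. MCM6 lay at 1.52 and CDT1 at 1.93, farther than the median of all ranked genes, as did CDC6 at 1.38. The comparisons behind this distance share vehicle in 3 of 5 cases.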

How the data were processed

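Total RNA of 8 Kyse510 libraries was sequenced as paired ends of 150 bases. The authors filtered out low-quality reads, aligned what remained to GRCh38 and deposited FPKM values in 2 tables of 31582 and 28942 genes. The aligner, the counting tool and whether strand was used are not given in the sources used here. Samples were grouped by their titles. FPKM hides depth, so fragments were recovered: values of single-exon genes fall on steps that give each library's total, and 34162 of 34164 genes then gave whole counts, with no recovered value farther than 0.000132 of a fragment from a whole number. Summed over genes they made 99.7% to 99.8% of the totals. The recovery and the calls were tested on simulated data.

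Each treated library was compared with its own control, which makes 5 comparisons. A pseudocount of 1 FPKM, a filter of 1 FPKM and a fold threshold of 1.3 were used. The exact 95% intervals cover counting error only. The members and lists were chosen with earlier results of these data known. All members, the targeted enzymes and GMNN are named, as are up to 3 genes with the largest called difference of each list and comparison, the 5 nearest genes by Euclidean distance and divergent neighbours within 1000 bases. Of list genes that meet this rule, a part is printed. Levels of such a gene in other libraries are given beside it.

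The alternatives were pseudocounts of 0.1 and 0.01, no filter, a filter of 5 FPKM, a fold threshold of 2, protein-coding genes only, a further criterion of an exact binomial p under 0.05 (which compares 2 libraries and not 2 conditions), centring on the median gene with at least 5 FPKM, TMM scaling (own implementation with 30% and 5% trimmed), and, as control, the uninduced libraries averaged. Of 26360 genes in both tables, 919 have other coordinates in each, and MCM4 and CDC6 were counted with another length in each, which does not touch comparisons within a table. Promoters came from RefSeq (GRCh38.p14), and of the 3 entries for MCM7 the one nearest to the deposited gene start was used. The scaling of the combination against single inhibitors and of the other lists, and the promoter window with the bases after the start, were added after seeing the data. A planned search for a protein motif was not run. Python 3.11.15, pandas 2.3.3, numpy 2.4.6, SciPy 1.17.1 and matplotlib 3.10.9 were used.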

Additional observations from a re-analysis of the deposited data

Results flagged for a closer look

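Doxycycline gave values of opposite sign in the 2 lines for 2 of the 10 licensing genes. For CDC6 the log2 fold change was 0.54 in the shLSD1 line and -0.13 in the shG9a line. For CDT1 it was -0.32 in the shLSD1 line and 0.34 in the shG9a line. Each line has 1 library per arm, and the difference between the lines was not tested.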

How the results depend on the processing

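No paired analysis was possible because each condition has 1 library, and for the same reason no library could be left out. Of the recomputed counts of licensing and other replication genes and medians of the licensing genes, 200 stayed within their set limit and 35 moved beyond it, and none of these medians turned. Of 55 medians of the other lists, 8 changed sign under centring or TMM, among them the fork factors with SP2509 (-0.08 to 0.02 and 0.20), the polymerases (-0.24 to 0.04 with TMM) and the licensing regulators there (-0.12 to 0.16 with TMM). Of the values for single members, 426 stayed and 44 moved, with no called value turned. With a fold threshold of 2, licensing genes called higher were 0 under UNC0642, 0 under the combination, 0 with shLSD1 and 1 with shG9a, and those called lower were 2 under SP2509, 0 under UNC0642 and 0 under the combination. Of all genes, 4.79%, 13.0%, 3.36% and 5.13% were then called higher in the former 4, and 13.0%, 3.12% and 9.57% lower in the latter 3. The other replication genes called higher and lower were then 0 and 4 with SP2509, 0 and 0 with UNC0642, and 6 and 1 with the combination, and those called higher were 2 with shLSD1 and 8 with shG9a. With TMM scaling, 3 licensing genes were called higher with SP2509 and 1 lower with shLSD1, with medians of -0.036 for SP2509, 0.35 for shLSD1 and 0.35 for shG9a, and the other replication genes called lower were 19, 4 and 2 in these comparisons, with 12 called higher for shLSD1. Of all genes, 25.9%, 18.6% and 27.4% were called lower in these comparisons with TMM, and 15.1% higher for shLSD1. Centring on the median gene, which lay at 0.11 with shLSD1 and 0.14 with shG9a on the log2 scale, gave 1 licensing gene called lower with shLSD1, 14 and 3 other replication genes higher and lower there, and a median of 0.44 with shG9a. Under centring, 17.0% and 16.6% of all genes were called higher and lower with shLSD1. A filter of 5 FPKM left 13 other replication genes called higher with shLSD1 and 32 with shG9a, since fewer genes were tested. Of all genes past that filter, 25.4% and 33.0% were called higher. Pseudocounts of 0.1 and 0.01 gave 2 other replication genes called lower with UNC0642, beside 21.4% and 21.9% of all genes. The pseudocount of 0.01 gave 1 other replication gene called lower with shLSD1, beside 15.3%. The mean of the uninduced libraries as control gave 4 licensing genes called higher with shLSD1 and a median of 0.29. Apart from the filter, the cause was not tested. The binomial criterion, no filter and protein-coding genes only moved none of these counts or medians beyond the limit. At 15662035 to 17889466 fragments per library, counting error was widest for MCM10 and ORC1 in the lines, with 35 to 138 and 164 to 310 fragments. No spread between replicates can be given.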
